A study of Mus musculus with 6 samples.

Results

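Secreted modulators of Wnt signalling were followed in adipose stromal cells (ASCs), the fibroblast-like progenitors of fat tissue. They were 6 genes: 3 antagonists, Dkk2, Sfrp1 and Sfrp2, and 3 R-spondins, Rspo1, Rspo2 and Rspo3. They belong to the 3181 genes that could be named among 23531 probe sets (transcript clusters, each a group of probes for 1 transcript). The members were chosen by a rule that used the values reported here. Each had to be named in the authors' deposited table of perigonadal against subcutaneous pools, which lists probe sets at an unadjusted p-value below 0.05 in a paired test, and their differences were known when the set was drawn up. The difference between the depots is therefore a description of these genes and no evidence that they differ. In that authors' deposited table, Rspo2 lay nearest to the limit, with a p-value of 0.032, and Sfrp2 farthest from it, with 0.000434. Probe sets past the limit carry no name here, so related genes just outside it cannot be shown.

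The cells came from male mice, from the subcutaneous depot (under the skin) or the perigonadal depot (visceral fat beside the gonads). They were sorted magnetically straight after tissue digestion as CD45-CD31-Sca1+, that is, lacking a leukocyte and an endothelial marker and carrying a progenitor marker, and were never cultured. Each depot had 3 pools of cells with 1 Affymetrix array per pool. The labels give 6 animals and no strain, age or treatment. They do not say whether 6 counts each pool or all of them, nor whether pools of 1 number shared animals. Errors therefore refer to pools and not to animals.

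Wnt proteins are secreted glycoproteins that bind a Frizzled receptor and the co-receptor LRP5 or LRP6, which stabilises beta-catenin and turns on target genes. In preadipocytes this signal is known to hold back differentiation into fat cells. Secreted Frizzled-related proteins (Sfrp1, Sfrp2) resemble the Wnt-binding part of Frizzled and can bind Wnts outside the cell, while the Dickkopf protein Dkk2 binds LRP5 and LRP6 and can block them. R-spondins act the other way: they bind the receptors LGR4, LGR5 and LGR6 together with the ubiquitin ligases ZNRF3 and RNF43, and so keep Frizzled at the cell surface.

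Promoter sequence was at hand for 3 of the 6 members, in RefSeq tables on build GRCm38.p6. It is shown for Dkk2 and Sfrp2, which were both lower in perigonadal cells, and for Rspo1, which was higher. Each line holds the 250 bases upstream of the annotated start, on the plus strand, 5′ to 3′. Dkk2 lies at chr3:132085042-132085291, Sfrp2 at chr3:83766071-83766320 and Rspo1 at chr4:124986180-124986429. Capitals mark any match, on both strands, to the TCF/LEF core words CTTTGA and CTTTGT (Wnt target genes use such sites), to the E-box word CAGCTG or to the TATA box word TATAAA.
Dkk2: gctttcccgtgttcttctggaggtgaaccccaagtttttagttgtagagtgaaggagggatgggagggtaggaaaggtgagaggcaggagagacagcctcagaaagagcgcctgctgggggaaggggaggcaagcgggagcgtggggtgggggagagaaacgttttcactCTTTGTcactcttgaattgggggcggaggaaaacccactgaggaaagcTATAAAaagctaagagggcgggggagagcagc
Sfrp2: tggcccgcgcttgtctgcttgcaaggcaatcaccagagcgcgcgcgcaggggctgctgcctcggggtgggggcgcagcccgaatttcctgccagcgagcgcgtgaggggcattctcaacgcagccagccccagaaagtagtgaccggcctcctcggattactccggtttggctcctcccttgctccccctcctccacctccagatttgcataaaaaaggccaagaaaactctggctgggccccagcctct
Rspo1: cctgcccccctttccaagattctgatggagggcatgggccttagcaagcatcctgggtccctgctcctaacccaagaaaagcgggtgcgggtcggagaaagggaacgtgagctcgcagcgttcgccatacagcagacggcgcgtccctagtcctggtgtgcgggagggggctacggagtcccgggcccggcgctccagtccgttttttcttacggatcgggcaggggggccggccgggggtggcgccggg

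The Dkk2 stretch held CTTTGT, starting 80 bases upstream of the start, and TATAAA, starting 32 bases upstream. The Sfrp2 and Rspo1 stretches held none of the 4 words, which says only that these letters are not in these windows. Over the 32851 promoters of the table, TATAAA occurred in 12.4% and CTTTGT in 16.5%, CTTTGA in 13.8% and CAGCTG in 13.0%. CTTTGT was added to the search after the sequences had been seen. The GC content was 55.6% for Dkk2, 63.6% for Sfrp2 and 66.8% for Rspo1, against a median of 52.4% over the table. These 3 promoters thus shared none of the words searched. With each word in only 12.4% to 16.5% of promoters, that says nothing about the direction in which the genes differed.

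Values below are the authors' normalized intensities, on a linear scale. A log2 difference is the perigonadal minus the subcutaneous value of log2(intensity + 1), so that dim genes appear to differ less than they do. It is given with the standard error (SE) of a limma fit across all probe sets that kept the pool number as a block. The SE combines a gene's own spread between pools with the spread over all probe sets. In that fit, 4.05% of all 23531 probe sets were higher in perigonadal pools and 5.47% lower, at an adjusted p-value below 0.05. Among the 3181 named genes, which the authors' own test had already picked, the shares were 20.9% and 31.4%. All 6 members passed, 3 higher and 3 lower, and nothing is read from that count, since the same contrast had chosen them. In all 6 the subcutaneous and perigonadal pools did not overlap, as in 25.1% of all probe sets.

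Dkk2 (transcript cluster 10496125, chromosome 3, band H2) showed the largest difference of the 6. Its intensity in subcutaneous pools 1 to 3 was 113.34, 90.86 and 92.19, and in the perigonadal pools of those numbers 12.63, 12.46 and 12.07. The subcutaneous pools were thus all far above the perigonadal ones, with a gap of 78.23 between the nearest pools. The means were 98.8 ± 12.6 and 12.4 ± 0.287 (SD, n = 3 here and below), a ratio of subcutaneous to perigonadal of 7.98. The log2 difference was -2.89 ± 0.096 (SE), and its size exceeded that of 99.8% of all probe sets. In bulk samples such as these, fewer cells of a type and less RNA per cell cannot be told apart.

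The 2 Frizzled-related antagonists mirrored each other. Sfrp2 (10492798, chromosome 3, band E3) had intensities of 599.30, 627.23 and 586.59 in the subcutaneous pools, in the same order, against 208.07, 216.47 and 189.79 in the perigonadal pools. Its means were 604 ± 20.8 and 205 ± 13.6, and its log2 difference was -1.56 ± 0.086. Sfrp1 (10570957, chromosome 8, band A2) ran the other way, with 74.61, 68.49 and 84.71 in subcutaneous pools 1 to 3 against 206.82, 209.45 and 257.31 in the perigonadal pools. Its means were 75.9 ± 8.19 and 225 ± 28.4, and its log2 difference was 1.55 ± 0.087. Sfrp2 was thus higher in subcutaneous cells by a ratio of 2.95 and Sfrp1 higher in perigonadal cells by a ratio of 2.96, with every pool on its depot's side in both. The levels of these genes cannot be set against each other, since each has its own probes.

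Rspo1 (10508012, chromosome 4, band D2.2) led the R-spondins. Its subcutaneous pools 1 to 3 had 19.18, 14.81 and 13.91, against 81.85, 96.58 and 110.46 in the perigonadal pools. The means were 16 ± 2.82 and 96.3 ± 14.3, a ratio of perigonadal to subcutaneous of 6.03, and the log2 difference was 2.52 ± 0.16. Rspo1 also had the widest spread among the members in subcutaneous cells, with a coefficient of variation of 17.7%.

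Rspo3 (10368495, chromosome 10, band A4) was higher in the same depot. Subcutaneous pools 1 to 3 had 10.45, 10.90 and 11.41, and the perigonadal pools had 35.99, 27.50 and 34.19. The means were 10.9 ± 0.48 and 32.6 ± 4.47, a ratio of 2.98, and the log2 difference was 1.49 ± 0.11. The subcutaneous pools were close together, while perigonadal pool 2 lay below the other two. With a pseudocount of 16 in place of 1 the log2 difference was 0.85.

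Rspo2 (10428388, chromosome 15, band B3.1-B3.2) was the exception among the R-spondins. Subcutaneous pools 1 to 3 had 9.72, 10.26 and 8.53 against 5.49, 4.49 and 5.47 in the perigonadal pools, so every subcutaneous pool was above every perigonadal one, by 3.04 or more. The means were 9.50 ± 0.885 and 5.15 ± 0.572, and the log2 difference was -0.77 ± 0.11. This probe set is dim: its perigonadal values lay below the medians of the arrays, which ran from 6.44 to 6.96. Its log2 difference was -0.89 on plain log2 values and -0.27 when 16 was added in place of 1.

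**Figure D1:**
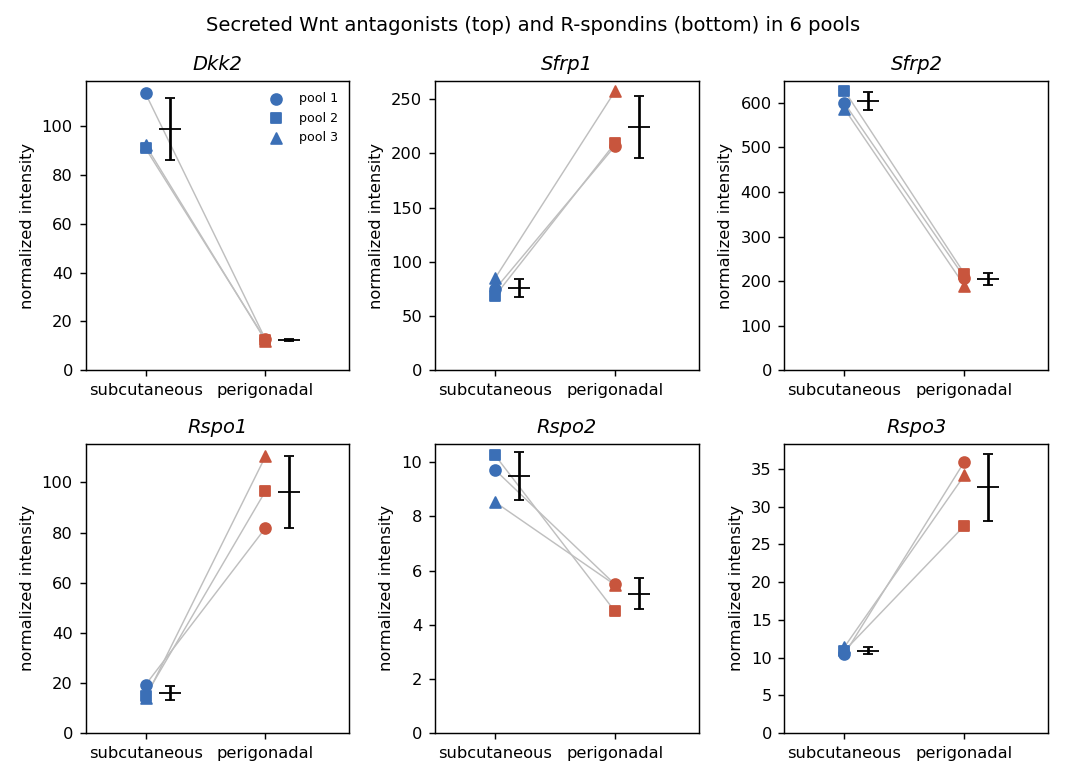
Normalized intensity (linear vertical axes, each from 0) of the 6 genes in subcutaneous (blue) and perigonadal (red) pools; marker shapes give the pool number, grey lines join pools of the same number, and black bars give the mean ± SD of 3 pools. No gene's groups overlap: Dkk2, Sfrp2 and Rspo2 lie higher in subcutaneous pools and Sfrp1, Rspo1 and Rspo3 in perigonadal pools.

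Set side by side, 2 of the 3 antagonists were lower in perigonadal cells and 1 was higher, while 2 of the 3 R-spondins were higher and 1 was lower. Ordered by their log2 differences, the genes ran from Dkk2 (-2.89) through Sfrp2 (-1.56), Rspo2 (-0.77), Rspo3 (1.49) and Sfrp1 (1.55) to Rspo1 (2.52). The pool pairs of Rspo3 (1.69, 1.26 and 1.50) and Sfrp1 (1.46, 1.60 and 1.59) overlapped, so this antagonist and this R-spondin cannot be ordered. Those of the other neighbours did not overlap. Dkk2 had pair differences of -3.07, -2.77 and -2.83, Sfrp2 of -1.52, -1.53 and -1.62, and Rspo2 of -0.72, -1.04 and -0.56. Rspo1 varied most from pair to pair, with 2.04, 2.63 and 2.90.

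**Figure D2:**
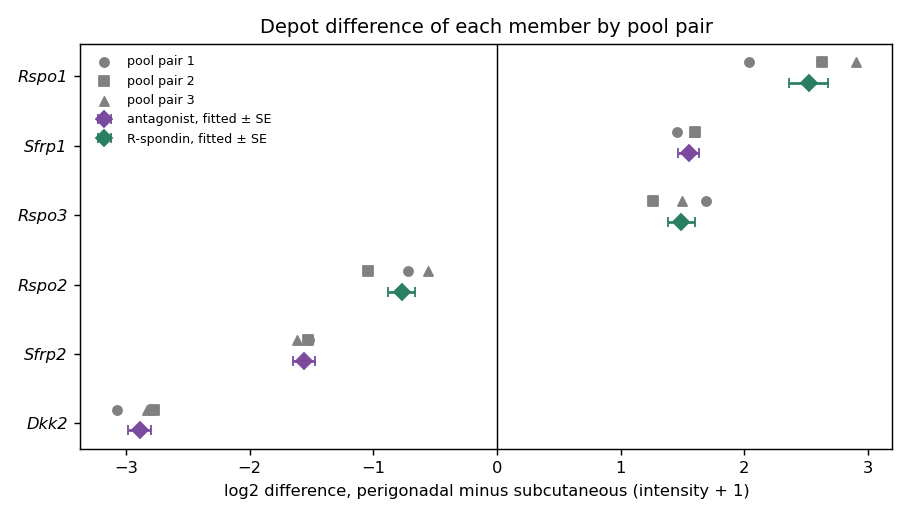
Log2 difference of perigonadal minus subcutaneous pools (horizontal axis, on intensity + 1) for each gene (vertical axis); grey markers are the 3 pool pairs, and coloured diamonds the fitted difference ± SE, purple for antagonists and green for R-spondins. Both colours lie on both sides of 0, and Sfrp1 and Rspo3 overlap at 1.55 and 1.49.

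Within a depot the 6 genes were measured closely, with coefficients of variation between 2.32% and 17.7% over 3 pools. The pools that lay highest differed from gene to gene. Sfrp1 was highest in pool 3 of both depots, by log2 0.16 and 0.20 above the depot mean. Sfrp2 was lowest in pool 3 of both, with deviations of -0.04 and -0.11. Rspo1 was highest in subcutaneous pool 1 (0.26) and lowest in perigonadal pool 1 (-0.22), and Dkk2 was highest in subcutaneous pool 1 (0.20). No single pool was high or low for all 6 genes.

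The named genes with the most similar course over the 6 pools were found by the root mean square (RMS) difference between log2(intensity + 1) profiles, each centred on its own mean, over 3180 other named genes. For Dkk2 these were the limb transcription factor Tbx5 (RMS 0.135), the protein kinase gene Prkg2 (0.149) and the cadherin Cdh9 (0.163). For Sfrp2 they were Dpp4 (0.047), which marks interstitial progenitors of fat, the cyclin gene Ccnd1 (0.055) and the nuclear receptor Rorb (0.076). For Sfrp1 they were the peptidase Naalad2 (0.041), the lactate dehydrogenase subunit Ldhb (0.085) and the matricellular gene Ccn2 (0.090). These values show likeness of level over 6 pools and the size of the depot difference weighs heavily in them.

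Rspo1 came closest to the intermediate filament gene Des (RMS 0.120), transferrin, Trf (0.161), and the tropomyosin gene Tpm2 (0.162). Rspo3 came closest to the filament gene Sync (0.056), Tmem255a (0.079) and the sodium pump subunit Atp1b2 (0.082). Rspo2 came closest to Nynrin (0.043), the amino acid transporter Slc7a7 (0.059) and the actin-binding gene Triobp (0.061). Among the members themselves, Sfrp1 and Rspo3 were the closest pair, at an RMS difference of 0.152. Their similar depot differences (log2 1.55 and 1.49), known when the members were chosen, weigh heavily in this likeness and in the ranks. Rspo3 ranked 20th among the 3180 genes compared with Sfrp1, and Sfrp1 ranked 17th for Rspo3. Dkk2 and Rspo1 were the farthest pair, at 2.71.

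**Figure D3:**
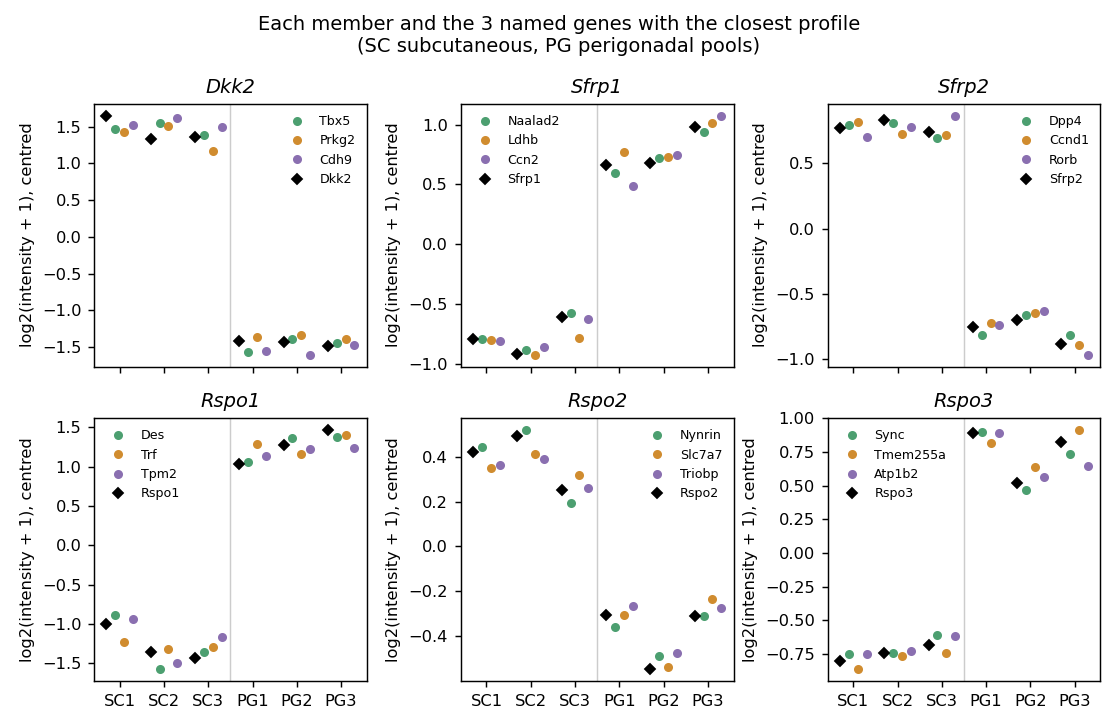
Log2(intensity + 1) centred on each gene's mean (vertical axes) in the 6 pools (horizontal axes) for each member (black diamonds) and its 3 most similar named genes (coloured circles). The closest match of all is Naalad2 to Sfrp1, at an RMS difference of 0.041, and Des follows Rspo1 at 0.120.

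Other genes of the pathway were read from lists by role. Of 128 list genes other than the members, 34 had a name here, and only through the authors' own test on these samples, so their counts are no independent evidence of direction. Of those 34, 5 were higher (14.7%) and 18 lower (52.9%) in perigonadal pools, against 20.9% and 31.4% of all named genes. Their median log2 difference was -0.38, beside -0.17 over the named genes and -0.01 over all probe sets. Without pool pair 2 the number lower was 11, and 18.9% of all named genes were lower in that fit.

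Among the ligands, 5 of 19 had a name, and 4 were lower and none higher. Wnt2, a ligand of the beta-catenin route, had 26.28, 31.18 and 27.87 in subcutaneous pools 1 to 3 against 4.42, 3.77 and 3.42 in the perigonadal pools. Its log2 difference of -2.60 ± 0.11 is near that of Dkk2, which can block the co-receptors of this route. The perigonadal values of Wnt2 lay below the array medians. Wnt10b, which is known to hold back fat cell formation, was at 13.0 ± 0.931 and 6.27 ± 0.869 (log2 difference -0.96 ± 0.088). Wnt11 was at 14.4 ± 1.82 and 8.68 ± 1.16 (-0.67 ± 0.091).

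Among 16 secreted antagonists, 5 had a name, the 3 members with Sfrp4 and Igfbp4, which are named here for being the remaining 2. Sfrp4, a further Frizzled-related protein, had 461.11, 460.82 and 459.65 in subcutaneous pools 1 to 3 against 185.07, 225.62 and 200.66 in the perigonadal pools. It was lower by a log2 difference of -1.18 ± 0.095, so that of the 3 named Frizzled-related genes only Sfrp1 was higher in perigonadal cells. Igfbp4, which binds insulin-like growth factors and has been described as a Wnt antagonist, had a log2 difference of -0.37 ± 0.085.

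Of 22 genes listed as Wnt or R-spondin receptors and co-receptors, 8 had a name: 3 were higher (Ror1, Ptk7 and Gpc3), 3 lower (Lrp5, Lgr5 and Fzd4) and 2 did not pass (Fzd1 and Ryk). Lrp5, a co-receptor that Dkk2 binds, had 35.27, 34.29 and 35.52 in subcutaneous pools 1 to 3 against 18.50, 15.54 and 17.97 in the perigonadal pools (log2 difference -0.98 ± 0.09). Lgr5, a receptor for R-spondins, had 6.95, 8.01 and 6.21 against 3.02, 3.47 and 3.53 (-0.89 ± 0.10). Both were thus lower in the depot where Rspo1 and Rspo3 were higher and Rspo2 was lower. Lgr4, Lgr6 and Lrp6 had no name here. The Frizzled receptor Fzd4 had a log2 difference of -0.51 ± 0.088, and Fzd1, which did not pass, one of -0.34 ± 0.084. Lgr5 is dim, with perigonadal values below the array medians. Ror1, a Wnt receptor outside the beta-catenin route, was higher at 26.3 ± 2.24 against 13.2 ± 3.05 (0.96 ± 0.11). Gpc3 and Ptk7 had log2 differences of 0.77 ± 0.084 and 0.71 ± 0.095. The subcutaneous values of Ptk7 lay below the array medians.

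Among 7 membrane inhibitors, 3 had a name and did not move together. Trabd2b, a membrane protease that inactivates Wnt proteins, was higher by log2 1.36 ± 0.14, while Apcdd1, a membrane inhibitor of Wnt signalling, had a log2 difference of -0.91 ± 0.087. Znrf3, the ligase that R-spondins draw away from Frizzled, was at 5.32 ± 0.179 and 4.29 ± 0.102 and did not pass (-0.25 ± 0.085). This probe set is dim, with its values in both depots below the array medians.

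Inside the cell, 10 of 29 genes had a name, of which 5 were lower and none higher. The largest differences were those of Dact2, which binds Dishevelled (-0.98 ± 0.11), of Tcf7l2, a transcription factor partner of beta-catenin (-0.57 ± 0.098), and of Bcl9l, a co-activator of beta-catenin (-0.52 ± 0.10). The perigonadal values of Dact2 lay below the array medians. Of 21 genes described as Wnt targets, 6 had a name, of which 3 were lower and 1 higher. Ccnd1, which encodes cyclin D1, had 66.94, 62.96 and 62.66 in subcutaneous pools 1 to 3 against 22.47, 23.79 and 19.91 in the perigonadal pools (-1.50 ± 0.092). The transcription factor Twist1 and the matricellular gene Ccn5 had log2 differences of -1.26 ± 0.12 and -0.96 ± 0.13. Many of these targets also answer to other signals. None of 13 planar polarity genes had a name.

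**Figure D4:**
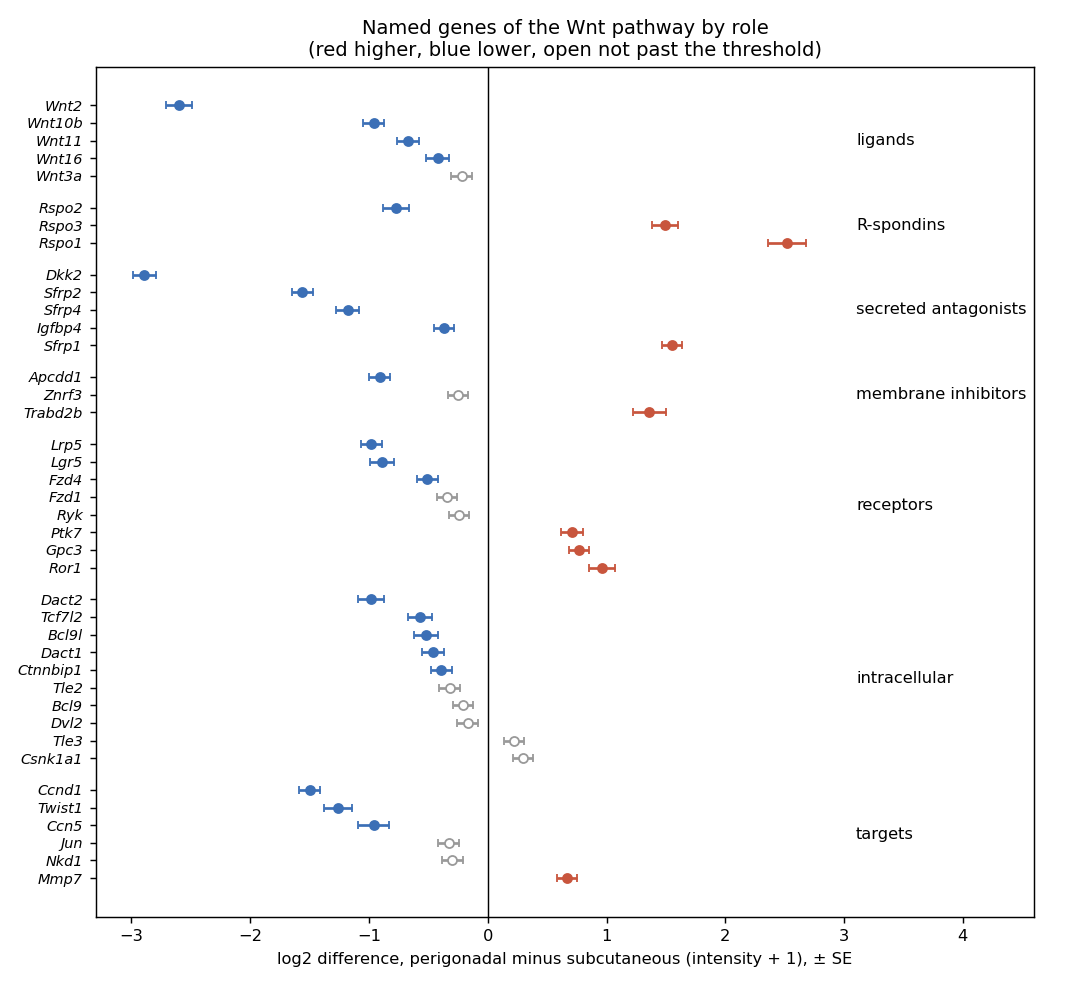
Fitted log2 difference ± SE of perigonadal minus subcutaneous pools (horizontal axis, on intensity + 1) for the 40 named Wnt pathway genes, grouped by role (vertical axis). Of the 40, 8 are higher (red), 21 lower (blue) and 11 do not pass (open); all named ligands lie below 0, and the R-spondins and antagonists lie on both sides.

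Markers of other cell types differed between the same pools, and Rspo1 is itself a marker of mesothelium, the cell layer that covers visceral fat. Markers, too, had a name only through the authors' own test on these samples. Beside each marker count here and below stand the shares of all named genes, 20.9% higher and 31.4% lower. Of 19 mesothelial markers 11 had a name, and the 10 other than Rspo1 comprised 9 that were higher and Igfbp6, which did not pass. Their summed intensity was 860 to 950 in subcutaneous and 910 to 1008 in perigonadal pools. Most of that was Igfbp6, which stromal cells also express. Without it, a choice made after the values were seen, the sum was 54.1, 50.3 and 42.8 in subcutaneous and 284, 306 and 270 in perigonadal pools 1 to 3. Wt1, which visceral stromal cells also express, was at 141 ± 13.5 in perigonadal pools and made up much of that sum, and Upk3b was at 3.55 ± 0.319 and 22 ± 9.19. Over perigonadal pools 1 to 3 these markers did not share 1 order. Upk3b had 17.64, 32.60 and 15.87, highest in pool 2, and Krt8 had 34.73, 24.74 and 19.15, highest in pool 1. Both were lowest in pool 3, as were Wt1 (144.32, 152.51 and 126.07) and Krt18 (11.74, 9.38 and 8.42). Krt19 (14.57, 15.19 and 10.78) and Krt7 (8.83, 8.50 and 7.78) were lowest there too. Gpm6a had 6.32, 10.71 and 6.52, highest in pool 2. Of these 9 markers, only Nkain4 and Aldh1a2 were highest in pool 3. Nkain4 had 25.47, 35.06 and 50.88, the same order as Rspo1, and Aldh1a2 had 19.99, 17.70 and 24.45, highest like Rspo1 in pool 3. An order of 3 pools says little, and the part of mesothelial cells in the Rspo1 difference was not tested.

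Of 6 named markers of mural cells, the contractile cells of vessel walls, 4 were higher and 2 lower, and their sum was 62.3 to 88.0 in subcutaneous and 111 to 146 in perigonadal pools. Des, the gene closest to Rspo1, led them at 8.78 ± 2.47 and 54.9 ± 6.81, whereas Abcc9 was at 32.1 ± 5.32 and 6.80 ± 0.352. Des alone gave 47.06, 58.70 and 59.01 of the perigonadal sums, which were 111, 123 and 146 in pool order. Acta2, Myh11 and Tagln were higher too, with log2 differences of 1.49, 0.74 and 0.50, and Kcnj8 (-0.92) was lower like Abcc9. Des is also on the skeletal muscle list. Of the 6 mural markers 66.7% were higher and 33.3% lower, against 20.9% and 31.4% of all named genes. The summed intensity weighs bright probe sets most, and the part of mural cells was not tested. Both Schwann cell markers read here, S100b and Mbp, were lower, with sums of 38.5 to 41.4 and 13.3 to 15.7 and log2 differences of -1.45 and -1.27. The 3 named leukocyte markers were dim, with sums of 9.68 to 11.5 and 12.2 to 13.9. Of these, Fcer1g was higher at 3.23 ± 0.471 and 6.40 ± 0.832 (log2 difference 0.81), while Itgam (0.04) and C1qa (-0.14) did not pass.

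Tek, the 1 named endothelial marker, which encodes an angiopoietin receptor, was lower, at 130 ± 8.99 in subcutaneous and 76.5 ± 2.94 in perigonadal pools (log2 difference -0.76). The lipid droplet gene Plin4, the 1 named adipocyte marker, was lower at 15.9 ± 2.99 and 5.19 ± 0.727 (-1.44). Of 2 named epithelial markers, the tight junction gene Cldn3 was lower at 8.54 ± 1.23 and 4.79 ± 0.508 (-0.72), and Cldn4 did not pass (0.07). Of 4 named skeletal muscle markers, Des was higher, as given above, and Myod1, Pax7 and Mylpf did not pass, with means of 3.86 to 6.00. No marker was at 0, since the lowest intensity in the table is 1.28. The part of such cells in the differences of the 6 members was not tested.

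Of 12 stromal markers 7 had a name, 1 higher and 5 lower. Ly6a, which encodes the Sca1 used in the sort, had a subcutaneous mean of 552 ± 59.5 and a perigonadal mean of 479 ± 44.0 and did not pass. The genes of CD45 and CD31, Ptprc and Pecam1, had no named probe set here, so the negative side of the sort could be read only from the leukocyte markers and Tek given above. The largest stromal differences were those of Col1a1 and Thy1, at -1.11 and -0.96.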

How the data were processed

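Each array's column of the authors' deposited value table gives normalized intensity values. Their linear scale was worked out from the log2 means. The submitters' processing notes name Partek as the tool. For its version, normalization and background correction the sources used here give nothing. The authors' deposited comparison table holds, per the file headers, log2 means and their difference, a ratio, a signed fold score, a t score and an unadjusted p-value, for 3694 entries, of which 3541 matched the value table. Names came from it, 3417 of them updated or checked through a RefSeq accession (GRCm38.p6). For genes with several probe sets the brightest was used.

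The 6 arrays were tested on log2(intensity + 1) with limma 3.58.1 in R 4.3.3 (lmFit, eBayes; 2 residual and 5.24 prior degrees of freedom) over all 23531 probe sets, with Benjamini-Hochberg adjustment at 0.05, and checked on simulated data. The pool number was a block because the study's own test was paired. Deviations of same-numbered pools correlated at 0.17, 0.16 and 0.053 across probe sets. Precision is limited by the number of arrays. The members and lists were chosen with earlier results of these data known. Values are named for the 3 largest differences of each role list, the 2 largest of the mesothelial (Rspo1 aside), mural, Schwann and stromal lists, and 3 similar genes per member. Ly6a, Igfbp6, Sfrp4, Igfbp4 and other list genes beyond these were added after their values were seen. Alternatives were other pseudocounts, a filter on dim probe sets, other scalings, no block, each pool pair left out and the paired test named by the comparison file. Protein sequence was not used here, and 1 gene was left out of the marker lists.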

Additional observations from a re-analysis of the deposited data

How the results depend on the processing

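The 6 members kept their direction under all 10 alternatives and passed the threshold under 9 of them. Their log2 differences ranged from -2.99 to -2.01 for Dkk2, from -1.58 to -1.49 for Sfrp2, from -0.89 to -0.27 for Rspo2, from 0.85 to 1.60 for Rspo3, from 1.38 to 1.60 for Sfrp1 and from 1.81 to 2.76 for Rspo1. The exception was the paired test that the comparison file names, in which every probe set has only its own 3 pairs to set its spread. It leaves the differences as they are (-2.89, -1.56, -0.77, 1.49, 1.55 and 2.52 in the same order), but after Benjamini-Hochberg adjustment it passed 1 probe set that was higher and 0 that were lower. It passed 0 of the 34 other Wnt list genes in either direction and none of the members, although 3535 probe sets, all 6 members among them, had an unadjusted p-value below 0.05. With no replicate block, 943 probe sets were higher and 1316 lower, against 952 and 1286 with the paired design, and 5 other Wnt list genes were higher and 20 lower. Leaving out 1 pool pair gave 529 to 1068 probe sets higher and 660 to 1408 lower, with the lowest counts without pair 1 (529 and 660), and 716 lower without pair 2. Of the other Wnt list genes it gave 5 higher and 11 to 15 lower, with 11 without pair 2. Leaving out 1 array breaks its pair and was not run apart from this. Other scalings moved the median of all probe sets by less than log2 0.1. Rspo2, the dimmest member, moved most for the size of its difference.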
